A study of Homo sapiens with 48 samples.

Results

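The genes described here are 32 targets of the tumour suppressor p53, read in 2 human cell lines in which an intergenic transcript between the C5 and TRAF1 genes had been targeted with an siRNA. A probe was taken as a member's when the array's platform annotation gave it that 1 gene symbol or an older alias of it. By this rule 30 of the 32 genes had at least 1 named probe, 46 probes in all, against 18849 genes with a named probe on the whole array. The expression of BTG2 and FDXR is not analysed here.

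Huh7 is a hepatoma line labelled as liver, and THP1 is a monocytic leukaemia line. Each line was transfected in 4 experiments, each from a different culture passage, with the intergenic siRNA (INTG), the commercial negative control siRNA number 2 (NC2) or the commercial negative control siRNA number 1 (NC1), in 2 wells per siRNA. All wells, controls included, received lipid transfection reagent and 50 pmol of siRNA and were collected after 2 days, and total RNA was read on 48 Illumina bead arrays, 8 per line and siRNA. Experiments 1 and 2 formed the discovery phase and shared a slide in each line. Experiments 3 and 4 formed the second phase and shared another, so phase and slide cannot be told apart. Within each experiment the siRNAs always occupied the slide in the same order, so siRNA and array position cannot be told apart either. The INTG arm is 1 siRNA sequence, and a second sequence against the same transcript was not used here.

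p53 is a transcription factor that is stabilised when DNA is damaged or growth signals are abnormal. It binds its targets as a tetramer at paired copies of a short motif and raises genes that halt the cell cycle, repair DNA, adjust metabolism or trigger apoptosis, while its target MDM2 sends it for degradation.

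The siRNA target and the promoters of 3 genes that recur below are shown first. The siRNA target site in the intergenic transcript was, as the labels print it:
siRNA target: aactacgtgaagaggcctctg
GDF15, the member with the largest change under INTG, has this promoter (RefSeq, GRCh38.p14, chr19:18385908-18386207, plus strand, 300 bases that end just past the gene start), in which capitals mark the TATA box motif TATAAA:
GDF15: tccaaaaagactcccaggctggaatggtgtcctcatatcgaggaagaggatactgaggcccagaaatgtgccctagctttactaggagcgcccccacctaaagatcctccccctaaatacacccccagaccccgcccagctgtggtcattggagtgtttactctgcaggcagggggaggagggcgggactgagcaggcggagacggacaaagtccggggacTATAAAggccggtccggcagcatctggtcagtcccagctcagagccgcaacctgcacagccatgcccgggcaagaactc
CDKN1A, the member that differed between the control siRNAs, has this promoter (RefSeq, GRCh38.p14, chr6:36678464-36678763, plus strand), which holds neither motif searched:
CDKN1A: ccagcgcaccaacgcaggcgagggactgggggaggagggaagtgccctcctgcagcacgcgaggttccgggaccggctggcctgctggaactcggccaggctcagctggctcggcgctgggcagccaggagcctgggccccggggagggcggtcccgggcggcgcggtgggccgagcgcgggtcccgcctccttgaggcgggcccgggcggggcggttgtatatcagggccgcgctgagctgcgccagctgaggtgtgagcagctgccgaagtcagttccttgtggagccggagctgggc
DDB2, the member with the most p53 motif matches in this window, has this promoter (RefSeq, GRCh38.p14, chr11:47214724-47215023, plus strand), in which capitals mark the matches to the p53 half-site:
DDB2: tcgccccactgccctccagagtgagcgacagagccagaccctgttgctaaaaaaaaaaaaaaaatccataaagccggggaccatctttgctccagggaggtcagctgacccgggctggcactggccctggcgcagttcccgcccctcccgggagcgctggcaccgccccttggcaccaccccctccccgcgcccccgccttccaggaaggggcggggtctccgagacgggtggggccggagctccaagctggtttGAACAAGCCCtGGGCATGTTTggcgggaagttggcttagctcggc
The 2 DDB2 matches stand next to each other with 1 base between them. Promoters of 300 bases were found for 27 members. The p53 half-site, searched on both strands, was in those of 7 members (25.9%), namely FAS, SESN1, PLK2, DDB2, FDXR, AEN and EI24, against 2202 of 27305 genes (8.06%). TATAAA on either strand was in the promoter of GDF15 alone among the members (3.70%), against 14.0% of all genes, and in no member did the 2 motifs overlap. A match is a string of letters in this window and no measure of binding. Known p53 sites of many targets, those of CDKN1A included, lie outside it.

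The mean probe signal of the arrays ranged from 240.6 to 396.8 in Huh7 and from 122.2 to 478.2 in THP1, and paired wells correlated at 0.986 or above in Huh7 and 0.921 or above in THP1. INTG arrays were dimmer than the controls of their experiment in Huh7 experiments 2 to 4, at ratios of 0.738 to 0.819, and in THP1 experiment 4, at 0.462. All 7 hepatocyte markers with a probe were detected on 24 of 24 Huh7 arrays, and 5 of them on 0 THP1 arrays, with ALB on 1 and APOA1 on 2. Among 7 myeloid markers SPI1 and ITGB2 were detected on 24 of 24 THP1 arrays and on 0 Huh7 arrays, but LYZ and CD14 were higher in Huh7, at 10.08 and 7.02, than in THP1, at 7.60 and 5.94, and CSF3R was detected on 18 Huh7 arrays. Of 4 lymphoid markers 3 were detected on 0 Huh7 arrays and 4 on 0 THP1 arrays, and of 5 fibroblast markers 3 and 4 were.

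Levels are given as the log2 of the background-corrected, quantile-normalised signal, 1 value per experiment and siRNA, the mean of 2 wells. Values near 4.5 are background. Levels of different genes are not set against each other, since probes differ in brightness. A probe entered the tests of a line if at least 8 of its 24 arrays detected it (detection p-value below 0.01). Each gene is read by its brightest tested probe. On this rule 22 members were tested in Huh7, 18 in THP1 and 17 in both. A call is a Benjamini-Hochberg adjusted p under 0.05 over all probes tested, in limma's moderated test. The experiment was a block in the siRNA comparisons and not in the comparison of the lines under control siRNAs.

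Without INTG, that is with the control siRNAs, the lines differed widely in these genes. A probe entered this comparison if it was tested in at least 1 line. Of 23 members tested, 11 were higher and 6 lower in Huh7 than in THP1. Of all 15860 probes 62.6% were called, 30.6% higher and 31.9% lower. When each gene was read by its probe with the smallest p, 12 members were higher and 5 lower, since ZMAT3 turned to higher. GDF15, SFN, CCNG2, TP53INP1 and PERP entered through Huh7 alone and PMAIP1 through THP1 alone. Each was called higher in the line through which it entered, a direction that the filter favours. The median member difference, which includes them, was 0.46 on the log2 scale, against -0.06 for all probes. Each slide held 1 line, so line and slide cannot be told apart. With the slide as a random block 15 members were called, where 49.8% of all probes were. The count fell to 9 (8 higher, 1 lower) with the authors' values, normalised slide by slide, where 29.4% of all probes were called. With median scaling it fell to 10 (9 higher, 1 lower), where 37.4% of all probes were called. Both lost SESN1, PERP, CDKN1A, ZMAT3, CCNG1, TRIAP1 and EI24, and the authors' values also lost TIGAR, so of the lower calls PMAIP1 alone passed in both. In these bulk samples fewer cells with a transcript and less of it per cell cannot be told apart.

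**Figure D1:**
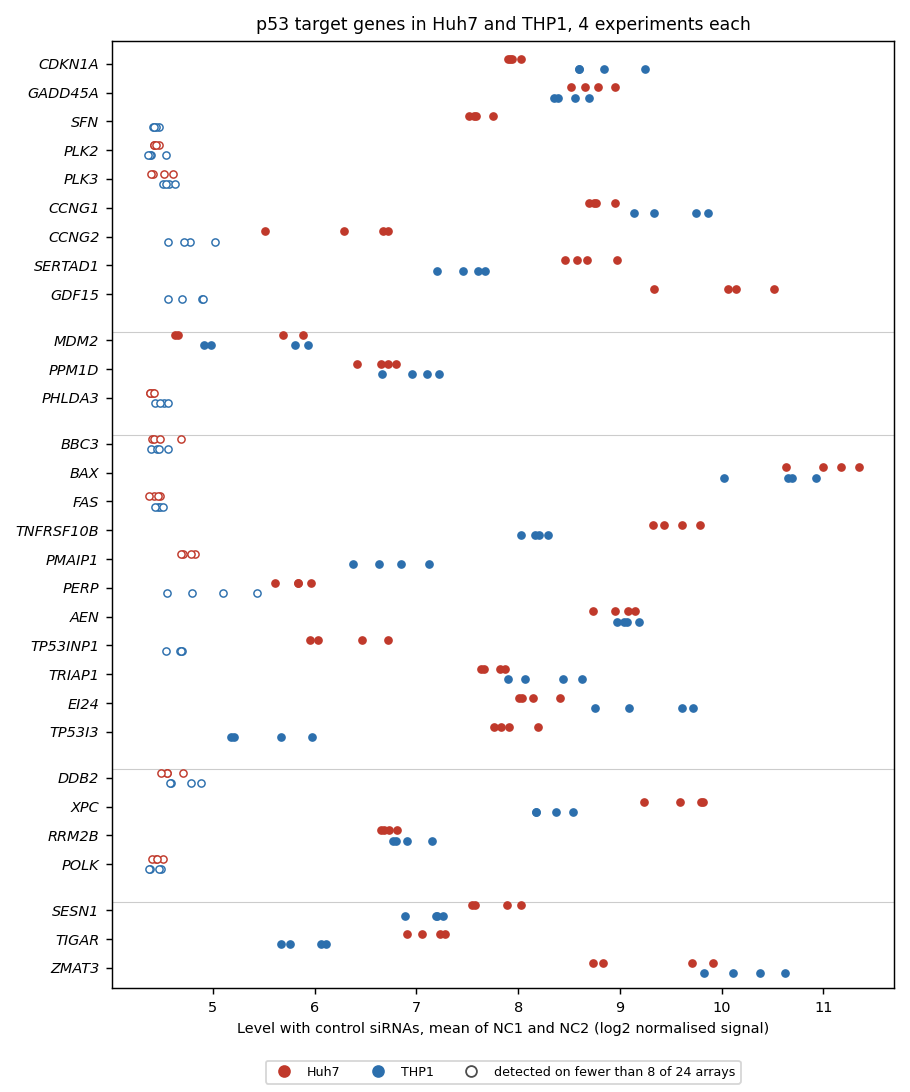
Level of the 30 members with a probe under control siRNAs (mean of NC1 and NC2, log2 normalised signal, horizontal axis), 1 point per experiment, Huh7 above THP1 for each gene, open points where the probe was detected on fewer than 8 of 24 arrays of the line, grey lines between roles. GDF15 and SFN lie far to the right in Huh7 and at background in THP1, PMAIP1 the reverse, and 7 members lie at background in both lines.

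Among the arrest and growth genes 4 of 7 tested were higher and 2 lower in Huh7, where 30.6% and 31.9% of all probes were. The higher genes include GDF15, SFN and CCNG2, which entered through Huh7 alone, so the filter favours that count. GDF15, a secreted stress cytokine, ran from 9.34 to 10.51 with a median of 10.10 over the 4 Huh7 experiments, against 4.55 to 4.90 with a median of 4.79 in THP1, where it was detected on 0 of 24 arrays. The lines did not overlap. The Huh7 level of GDF15 was at least 20.5-fold higher than in THP1, a bound that sets each undetected array at the lowest signal detected on it (limma adjusted p = 5.1e-08).

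SFN encodes 14-3-3 sigma, which holds cells before mitosis. It averaged 7.60 ± 0.10 (SD, n = 4 experiments) in Huh7 and 4.44 ± 0.02 in THP1, again with 0 detections in THP1, and was at least 3.86-fold higher in Huh7. CCNG2, an atypical cyclin linked to arrest, averaged 6.30 ± 0.56 in Huh7 and was not detected in THP1 at 4.77 ± 0.19, a bound of at least 1.56-fold. SERTAD1, a regulator of CDK4 and E2F, was higher in Huh7 by 1.19 (SE 0.16, adjusted p 0.0001).

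CDKN1A, which encodes the cyclin-dependent kinase inhibitor p21, went the other way. Its control level was 7.95 ± 0.06 in Huh7 and 8.82 ± 0.31 in THP1 (SD, n = 4 each), and all 4 THP1 experiments, from 8.59 to 9.24, lay above all 4 Huh7 experiments, from 7.90 to 8.03. The difference was -0.87 (SE 0.16, limma adjusted p = 0.0010). CCNG1, a cyclin that brings a phosphatase to MDM2, was also lower in Huh7 (-0.73, SE 0.17, adjusted p = 0.0048). GADD45A, a DNA damage sensor that restrains the cell cycle, averaged 8.73 ± 0.18 in Huh7 and 8.50 ± 0.16 in THP1, and the lines overlapped.

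Of the apoptosis genes, 4 of 9 tested were higher in Huh7 and 3 lower, beside 30.6% and 31.9% of all probes. These counts include TP53INP1 and PERP, which entered through Huh7 alone, and PMAIP1, through THP1 alone, each in the direction that the filter favours. TP53I3, an oxidoreductase also called PIG3, averaged 7.92 ± 0.19 in Huh7 and 5.50 ± 0.39 in THP1, a difference of 2.42 (SE 0.20). TNFRSF10B, the TRAIL death receptor DR5, averaged 9.54 ± 0.21 in Huh7 and 8.17 ± 0.11 in THP1, a difference of 1.36 (SE 0.14). TP53INP1, a stress protein of apoptosis and autophagy, averaged 6.29 ± 0.37 in Huh7 and was not detected on the control arrays of THP1, which bounds it at 1.55-fold or more. PERP, a membrane protein of apoptosis and cell adhesion, was 0.84 higher in Huh7 (SE 0.19, adjusted p = 0.0039). In THP1 PERP was detected on 5 of 12 arrays of experiments 1 and 2 and on 0 of 12 of experiments 3 and 4. Its THP1 level was thus mostly background, and the size of the difference is uncertain.

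PMAIP1, the BH3-only killer protein NOXA, showed the reverse pattern to GDF15. It ran from 4.69 to 4.82 in Huh7, where 0 of 24 arrays detected it, and from 6.37 to 7.12 in THP1, so THP1 was at least 2.39-fold higher. EI24, an endoplasmic reticulum protein of autophagy, averaged 8.15 ± 0.18 in Huh7 and 9.29 ± 0.45 in THP1, a difference of -1.14 (SE 0.22, adjusted p = 0.0014). TRIAP1, a small inhibitor of apoptosis, differed by -0.51 (SE 0.17, adjusted p = 0.0282) and passed in 6 of 14 alternative settings. BAX, which opens the mitochondrial outer membrane, averaged 11.04 ± 0.31 in Huh7 and 10.57 ± 0.38 in THP1 and did not pass (0.46, SE 0.22, adjusted p = 0.0961), nor did AEN, an apoptosis-enhancing nuclease (-0.09, adjusted p = 0.576).

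Fewer repair, feedback and metabolic members could be tested. XPC, which recognises damage in nucleotide excision repair, averaged 9.61 ± 0.27 in Huh7 and 8.31 ± 0.17 in THP1, a difference of 1.30 (SE 0.16). RRM2B, the p53-inducible subunit of ribonucleotide reductase, averaged 6.72 ± 0.07 in Huh7 and 6.91 ± 0.17 in THP1 and did not pass. SESN1, which restrains mTORC1 under stress, was higher in Huh7 by 0.62 (SE 0.15), and TIGAR, which lowers glycolytic flux, averaged 7.12 ± 0.17 in Huh7 and 5.90 ± 0.22 in THP1. The phosphatase PPM1D, which switches p53 signalling off, averaged 6.64 ± 0.17 in Huh7 and 6.99 ± 0.24 in THP1 and did not pass (adjusted p = 0.0817).

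ZMAT3, an RNA-binding zinc finger protein, gave opposite answers by probe. Its brightest probe averaged 9.30 ± 0.60 in Huh7 and 10.23 ± 0.34 in THP1, a difference of -0.94 (SE 0.30, adjusted p = 0.0198). The other 2 probes of ZMAT3 were higher in Huh7, by 2.23 (SE 0.15) and 2.38 (SE 0.12). No direction for the gene as a whole follows from these probes.

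MDM2, the ubiquitin ligase of p53, differed between phases more than between lines. Its main probe was detected on all 12 arrays of experiments 1 and 2 and on 0 of 12 arrays of experiments 3 and 4 in each line. Control levels of MDM2 averaged 5.78 in experiments 1 and 2 and 4.64 in experiments 3 and 4 in Huh7, and 5.87 and 4.95 in THP1. The same split of detection was seen for 1.2% of probes tested in Huh7, 2.45% in THP1 and 0.381% in both lines. The part of the slide in it was not tested. Huh7 minus THP1 for MDM2 was -0.20 (SE 0.36, adjusted p = 0.654).

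The other 7 members were detected on 0 arrays of either line: the death receptor FAS, the BH3-only gene BBC3 (PUMA), the polo-like kinases PLK2 and PLK3, the damage-binding gene DDB2, the AKT repressor PHLDA3 and the translesion polymerase POLK. BBC3 stood at 4.32, 4.40, 4.33 and 4.45 with INTG, at 4.42, 4.45, 4.50 and 4.62 with NC2 and at 4.39, 4.39, 4.47 and 4.76 with NC1 in Huh7. In THP1 BBC3 stood at 4.42, 4.43, 4.56 and 4.50 with INTG, at 4.49, 4.42, 4.53 and 4.55 with NC2 and at 4.64, 4.36, 4.36 and 4.39 with NC1. These values are background in every arm, so changes of these 7 genes were not measurable with these probes.

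Against the mean of both controls in Huh7, 5 of 22 members tested were called, where 22.3% of all 13878 probes were called, 10.3% higher and 12% lower. The count of members is thus close to the share over all probes. GDF15, BAX and XPC rose and CCNG2 and TIGAR fell. By role, the calls were 1 higher and 1 lower of 7 arrest and growth genes, 1 of 8 apoptosis genes, 1 of 2 repair genes, 1 of 3 metabolic genes and 0 of 2 feedback genes. The median member moved by 0.04, against 0.01 for all probes, with 13 members above 0 and 9 below.

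**Figure D2:**
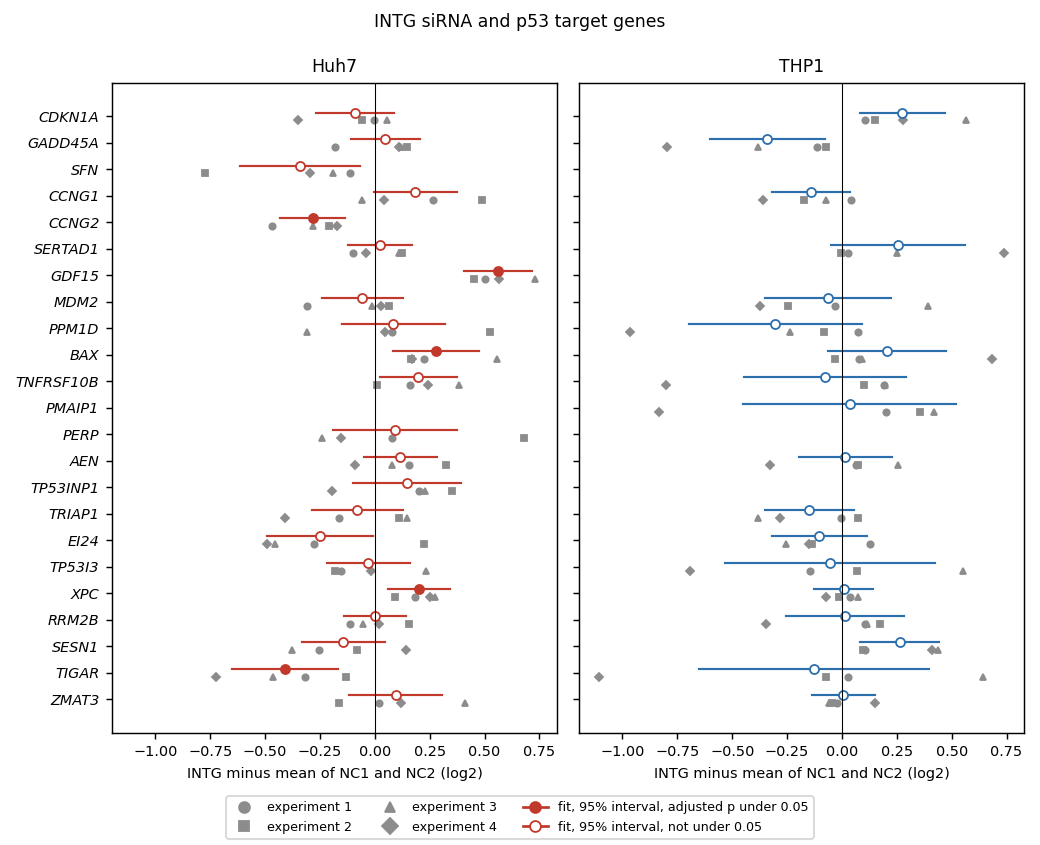
INTG minus the average of both controls (log2, horizontal axis) for each member tested, Huh7 left and THP1 right; large circles with bars are the fitted difference and its 95% interval, filled where adjusted p was under 0.05, and grey marks are the 4 experiments. In Huh7 5 circles are filled, with GDF15 farthest right; in THP1 none is, and experiment 4 often lies apart.

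GDF15 had the largest difference of the 22. In Huh7 it stood at 10.57, 10.59, 11.24 and 9.90 in experiments 1 to 4 with INTG, at 10.05, 10.28, 10.54 and 9.33 with NC2 and at 10.08, 10.00, 10.48 and 9.35 with NC1. INTG lay above both controls within every experiment, although the experiments themselves differed so much that the groups overlap as a whole. GDF15 rose by 0.56 (SE 0.07, 95% interval 0.41 to 0.72), 1.48-fold, with a limma adjusted p of 0.0003. It passed against NC1 alone (0.60, adjusted p = 0.0007) and against NC2 alone (0.52, adjusted p = 0.0018), and was the only member to pass against each control singly; 4.11% of all probes passed upward in both and 7.10% downward. In experiments 1 and 2 alone the rise was 0.48 and in experiments 3 and 4 alone 0.65. With array brightness as a covariate the rise against the mean of the controls was 0.55 (adjusted p = 0.0243). But with that covariate, as in each phase alone, 0 members passed against each control singly. Of all probes 1.43% did so with the covariate, 2.75% in experiments 1 and 2 alone and 2.08% in experiments 3 and 4 alone. Without the experiment as a block the rise no longer passed (adjusted p = 0.488), and with median scaling in place of quantile normalisation it was 0.31 (adjusted p = 0.0518).

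XPC stood at 10.00, 9.68, 9.51 and 10.05 with INTG, at 9.85, 9.53, 9.27 and 9.86 with NC2 and at 9.78, 9.66, 9.20 and 9.73 with NC1 in Huh7. INTG was above both controls in 4 of 4 experiments, by a margin as small as 0.02 in experiment 2. XPC rose by 0.20 (SE 0.06, adjusted p = 0.0450), 1.15-fold. It passed in 6 of 16 alternative settings, and its direction turned with median scaling (-0.055, adjusted p = 0.778), where the median of all probes was -0.17.

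BAX had 2 tested probes, listed under different transcripts in the platform annotation, and they moved in opposite directions. Which transcripts they hit was not checked against probe sequences. The brighter BAX probe stood at 11.57, 11.34, 11.19 and 11.16 with INTG, at 11.41, 11.35, 10.79 and 10.92 with NC2 and at 11.28, 11.00, 10.47 and 11.06 with NC1. It rose by 0.28 (SE 0.09, adjusted p = 0.0433), 1.21-fold, with INTG above both controls in 3 of 4 experiments. The dimmer BAX probe stood at 6.16, 6.31, 6.28 and 5.53 with INTG, at 6.61, 6.94, 6.73 and 6.51 with NC2 and at 6.53, 6.81, 6.14 and 6.49 with NC1. It fell by 0.52 on the log2 scale (SE 0.12, adjusted p = 0.0104), below both controls in 3 of 4 experiments and between them in experiment 3. The rise of the brighter BAX probe passed in 4 of 16 alternative settings.

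TIGAR stood at 6.74, 7.10, 6.81 and 6.18 with INTG, at 7.17, 7.21, 7.55 and 6.83 with NC2 and at 6.94, 7.26, 7.003 and 6.97 with NC1 in Huh7. INTG was the lowest arm in 4 of 4 experiments, with the widest gap in experiment 4. TIGAR fell by 0.41 on the log2 scale (SE 0.11, adjusted p = 0.0213), to 0.753 of the control level. Against NC2 alone it passed (-0.48, adjusted p = 0.0264) and against NC1 alone it did not (-0.34, adjusted p = 0.0920).

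CCNG2 stood at 6.21, 6.08, 5.23 and 6.55 with INTG, at 6.72, 6.40, 5.64 and 6.75 with NC2 and at 6.63, 6.18, 5.38 and 6.69 with NC1. Its INTG value was the lowest of the 3 arms in each experiment. CCNG2 fell by 0.28 on the log2 scale (SE 0.07, adjusted p = 0.0128), to 0.822 of the control level. A second CCNG2 probe gave -0.20 (SE 0.16, adjusted p = 0.401).

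INTG was above both controls in all 4 experiments for 2 of 22 members (XPC and GDF15) and below both for 2 (CCNG2 and TIGAR), against 10.7% and 12% of all probes. The split of calls depended on the scaling and on the probe. Quantile normalisation gave 3 higher and 2 lower, and median scaling gave 0 higher and 5 lower, namely SESN1, CCNG2, TIGAR, SFN and EI24. With each gene read by its probe of smallest p, 2 were higher and 3 lower, BAX among the lower (22.3% of all probes called). Of all probes 27.6% were called with median scaling. Leaving out experiment 1 left 1 member called, GDF15 (14.5% of all probes), and leaving out experiment 4 left 2, GDF15 and CCNG2 (12.7%).

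**Figure D3:**
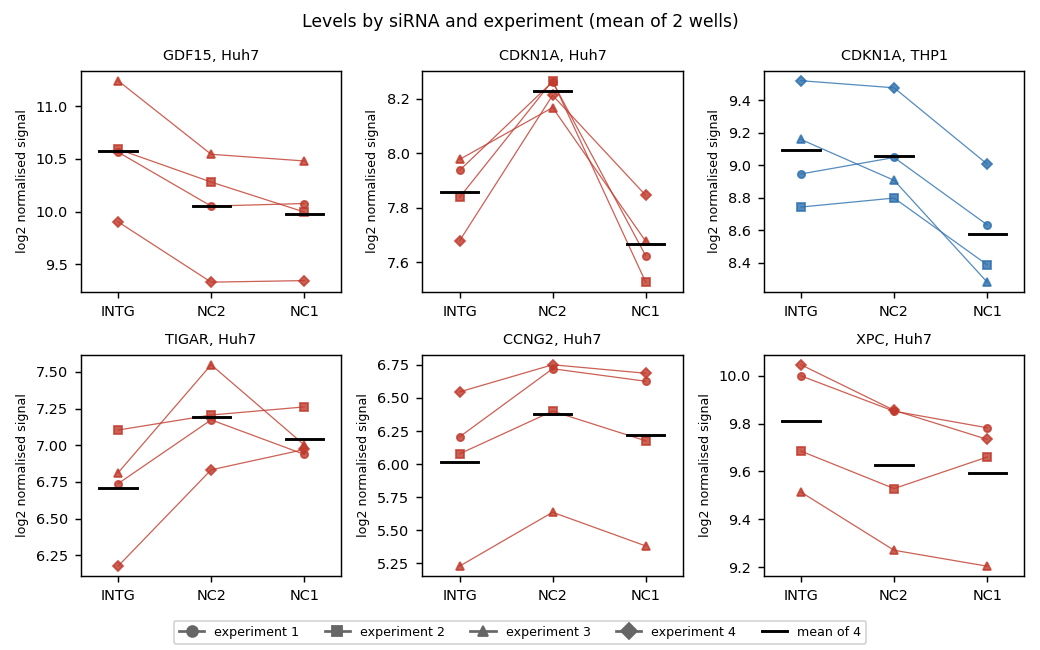
Level by siRNA (log2 normalised signal, vertical axis, own scale per panel) with 1 line per experiment and black bars for the mean of 4 experiments; Huh7 in red, THP1 in blue. In Huh7 GDF15 and XPC are highest with INTG in each experiment and TIGAR and CCNG2 lowest, and CDKN1A is higher with NC2 than with NC1 in all 8 experiments.

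CDKN1A did not pass against the mean of the controls in Huh7, and the controls themselves differed. It stood at 7.94, 7.84, 7.98 and 7.68 with INTG, at 8.26, 8.27, 8.17 and 8.21 with NC2 and at 7.62, 7.53, 7.68 and 7.85 with NC1. All 4 NC2 values lay above all 4 INTG values and all 4 NC1 values, and INTG lay between the controls in 3 of 4 experiments. Against the mean of the controls the difference was -0.09 (SE 0.08, 95% interval -0.27 to 0.09, adjusted p = 0.454). Against NC2 alone CDKN1A was lower by 0.37 on the log2 scale (-0.37, SE 0.09, adjusted p = 0.0221). Against NC1 alone the difference was 0.19 (adjusted p = 0.187).

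NC2 minus NC1 for CDKN1A in Huh7 was 0.56 (SE 0.09, 95% interval 0.35 to 0.76, adjusted p = 0.0296), 1.47-fold. It was the only one of 22 members called between the controls, where 0.476% of all probes were. With any 1 experiment left out the difference did not pass, with adjusted p between 0.0616 and 0.254. In THP1 CDKN1A stood at 9.05, 8.80, 8.91 and 9.48 with NC2 and at 8.63, 8.39, 8.28 and 9.01 with NC1, higher with NC2 in 4 of 4 experiments. There the difference was 0.48 (SE 0.10) with an unadjusted p of 0.0011 and an adjusted p of 0.9998, in a comparison in which 0 of 13524 probes were called. The INTG level of CDKN1A in THP1, at 8.95, 8.74, 9.16 and 9.52, was near that of NC2.

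3 further members passed against 1 control only in Huh7, where 18.5% of all probes passed against NC1 (8.32% higher, 10.2% lower) and 16% against NC2 (6.82% higher, 9.14% lower). SFN stood at 7.41, 6.81, 7.37 and 7.46 with INTG, at 7.56, 7.53, 7.18 and 7.60 with NC2 and at 7.48, 7.64, 7.94 and 7.91 with NC1, and passed against NC1 (-0.48, adjusted p = 0.0389). INTG was below both controls of SFN in 3 of 4 experiments, and against their mean it gave -0.34 (adjusted p = 0.0704).

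SESN1 stood at 7.64, 7.49, 7.17 and 8.16 with INTG, at 7.97, 7.79, 7.74 and 8.26 with NC2 and at 7.81, 7.36, 7.36 and 7.78 with NC1, and passed against NC2 (-0.32, adjusted p = 0.0476). Its INTG values lay below NC2 in each experiment and on either side of NC1. The main TNFRSF10B probe stood at 9.59, 9.33, 10.17 and 9.85 with INTG, at 9.30, 9.22, 9.78 and 9.37 with NC2 and at 9.56, 9.42, 9.80 and 9.84 with NC1, and passed against NC2 (0.32, adjusted p = 0.0395). A second TNFRSF10B probe, detected on 11 of 24 arrays, stood at 5.07, 5.08, 6.20 and 6.46 with INTG, at 5.11, 4.82, 6.21 and 5.99 with NC2 and at 5.04, 4.77, 5.81 and 5.68 with NC1, and passed against NC1 (0.38, adjusted p = 0.0367). Both TNFRSF10B probes were thus above 1 control and neither passed against both.

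In all, 3 members passed against NC1 (BAX and GDF15 up, SFN down) and 6 against NC2 (TNFRSF10B and GDF15 up, CDKN1A, SESN1, CCNG2 and TIGAR down). The 2 comparisons share the INTG arrays.

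MDM2, the feedback inhibitor, stood at 5.57, 5.75, 4.61 and 4.68 with INTG, at 5.76, 5.55, 4.57 and 4.75 with NC2 and at 6.01, 5.82, 4.67 and 4.56 with NC1 in Huh7. INTG was below both controls in experiment 1 and between them in the other 3, and the difference was -0.06 (SE 0.08, 95% interval -0.24 to 0.13, adjusted p = 0.670). In THP1 MDM2 stood at 5.78, 5.69, 5.31 and 4.61 with INTG, at 5.87, 5.92, 5.05 and 4.89 with NC2 and at 5.75, 5.95, 4.78 and 5.06 with NC1, a difference of -0.06 (SE 0.12). Only experiments 1 and 2 measured MDM2 above background.

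**Figure D4:**
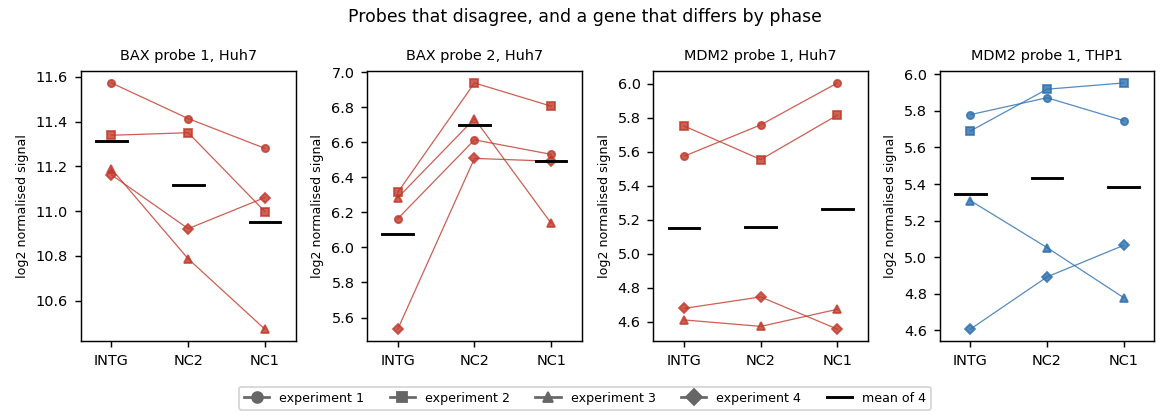
Level by siRNA (log2 normalised signal, vertical axis, own scale per panel) for the 2 tested BAX probes in Huh7 and the main MDM2 probe in Huh7 and THP1, 1 line per experiment, black bars for the mean of 4. The BAX probes lie on opposite sides of the controls, and MDM2 falls into a higher pair (experiments 1 and 2) and a lower pair near background.

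The other 17 members tested in Huh7 lay between -0.34 and 0.20 with adjusted p from 0.0704 to 0.991. GADD45A moved by 0.05 (SE 0.07), TP53I3 by -0.03 (SE 0.09) and RRM2B by 0.00 (SE 0.06), with intervals for GADD45A of -0.11 to 0.20. EI24 stood at -0.25 (adjusted p = 0.126) and CCNG1 at 0.18 (adjusted p = 0.151). At an unadjusted p under 0.05, 8 of the 22 members would count, where 4932 of 13878 probes would.

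In THP1 0 of 18 members were called by limma against the mean of the controls, where 0.0444% of all probes (6 of 13524) were, 0.00739% higher and 0.037% lower; 3 of 18 members had an unadjusted p under 0.05, as did 1612 of 13524 probes. Members lay between -0.34 and 0.27 with a median of -0.02, against -0.07 for all probes. INTG was above both controls in all 4 experiments for SESN1 and below both for GADD45A, that is 1 of 18 members each, against 2.51% and 6.34% of all probes.

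SESN1 in THP1 stood at 7.37, 7.30, 7.32 and 7.60 with INTG, at 7.29, 7.14, 6.92 and 7.18 with NC2 and at 7.23, 7.27, 6.85 and 7.20 with NC1, a difference of 0.26 (SE 0.08, adjusted p = 0.344). GADD45A stood at 8.24, 8.49, 8.32 and 7.59 with INTG, at 8.35, 8.60, 8.69 and 8.45 with NC2 and at 8.35, 8.52, 8.70 and 8.32 with NC1, a difference of -0.34 (SE 0.11, adjusted p = 0.372). The widest GADD45A gap came from the dim INTG arrays of experiment 4. CDKN1A gave 0.27 (SE 0.08, adjusted p = 0.344), with INTG above the mean of the controls in 4 of 4 experiments.

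The main PMAIP1 probe in THP1 stood at 7.05, 7.48, 6.79 and 5.80 with INTG, at 6.76, 7.10, 6.19 and 6.89 with NC2 and at 6.94, 7.15, 6.55 and 6.38 with NC1. INTG was above both controls in experiments 1 to 3 and below both in experiment 4. The fitted difference for this PMAIP1 probe was 0.04 (SE 0.21), and a second, dimmer probe gave 0.44 (SE 0.13, adjusted p = 0.344).

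Against NC1 alone and against NC2 alone 0 of 18 members were called by limma in THP1, with 4 and 2 at an unadjusted p under 0.05 (1309 and 1079 of 13524 probes), where 0.00739% of all probes were called in each, all of them lower, and the same share in both. Without the 2 dim INTG arrays of experiment 4, 0 members were called against the mean of the controls (0.266% of all probes) or against both singly (0.0592%). GDF15, SFN, CCNG2, TP53INP1 and PERP were not tested in THP1, being detected on fewer than 8 of its arrays.

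The difference between the INTG effects of the 2 lines was tested for 17 members, and 0 passed, where 2.6% of all 11542 probes did, 1.05% higher in Huh7 and 1.55% lower (limma, joint fit); 5 of 17 had an unadjusted p under 0.05, as did 2093 of 11542 probes. The largest among main probes were SESN1 at -0.41 (SE 0.12, adjusted p = 0.0825), GADD45A at 0.39 (SE 0.13, adjusted p = 0.140) and CDKN1A at -0.36 (SE 0.12, adjusted p = 0.115). XPC, BAX and TIGAR, called in Huh7, differed between the lines by 0.19, 0.07 and -0.28 (adjusted p of 0.196, 0.805 and 0.572), so for none of these 3 was the effect shown to differ. The dimmer BAX probe differed by -0.74 (SE 0.20, adjusted p = 0.0696). GDF15 and CCNG2 could not be compared.

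Other genes of the p53 pathway were read from 2 lists. Of 24 regulators and partners of p53, 16 were tested in Huh7, of which 3 rose and 2 fell under INTG, where 10.3% of all probes rose and 12% fell. HIPK2, a kinase that phosphorylates p53 after damage, rose by 0.46 (SE 0.12, adjusted p = 0.0164). EP300, an acetyltransferase and coactivator of p53, rose by 0.41 (SE 0.12), and COP1, a ubiquitin ligase for p53, by 0.23 (SE 0.06). PPP1R13L, the inhibitory ASPP protein iASPP, gave -0.55 (SE 0.14, adjusted p = 0.0180), and DAXX, a histone chaperone that binds MDM2, gave -0.37 (SE 0.07, adjusted p = 0.0049). HIPK2, COP1 and DAXX passed against NC1 singly and PPP1R13L and DAXX against NC2 singly, where 18.5% and 16% of all probes did. EP300 passed against neither control singly.

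DAXX stood at 6.42, 6.39, 6.61 and 6.44 with INTG, at 6.61, 6.84, 6.83 and 6.85 with NC2 and at 6.62, 6.97, 7.15 and 6.83 with NC1, and INTG was below both controls within each experiment. MDM4, the partner of MDM2, was not tested in Huh7 and gave -0.02 in THP1 (adjusted p = 0.894). In THP1 0 of 15 regulators were called, where 0.0444% of all probes (6 of 13524) were. Between lines, 5 of 18 were higher in Huh7 and 5 lower, where 30.6% and 31.9% of all probes were. Among them were CDKN2A (at least 4.54-fold higher in Huh7), PPP1R13B (at least 2.91-fold higher), HIPK2 (2.38, SE 0.25) and DAXX (-1.09, SE 0.25). Of these calls, CDKN2A, PPP1R13B and PPP1R13L entered through Huh7 alone and KAT5 through THP1 alone. Each was called higher in the line through which it entered, a direction that the filter favours.

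Of 27 further p53 targets, 18 were tested in Huh7, of which 4 rose and 3 fell, beside the same shares of all probes. DRAM1, a lysosomal membrane protein of autophagy, stood at 10.37, 10.08, 9.72 and 10.48 with INTG, at 9.85, 9.54, 9.22 and 9.88 with NC2 and at 9.79, 9.49, 8.86 and 9.75 with NC1. INTG was above both controls in 4 of 4 experiments. DRAM1 rose by 0.62 (SE 0.07, adjusted p = 0.0001), 1.53-fold.

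IGFBP3, which binds insulin-like growth factors, rose by 0.81 (SE 0.14, adjusted p = 0.0026), with INTG above both controls in 4 of 4 experiments; its second probe gave 0.68 (adjusted p = 0.0041). AIFM2, the ferroptosis suppressor FSP1, was detected on 0 of 8 INTG arrays and on 13 of 16 control arrays of Huh7. Its measured means were 4.93 with INTG and 5.92 with the controls, so it was at least 1.31-fold lower with INTG (adjusted p = 0.0002). AIFM2, among the 3 that fell, entered the tests through control arrays alone, so the filter favours this direction. KITLG, the ligand of the KIT receptor, rose by 0.30 (SE 0.07). THBS1, an inhibitor of angiogenesis, gave -0.42 (SE 0.10, adjusted p = 0.0128), and SHISA5, a protein of the endoplasmic reticulum, gave -0.24 (SE 0.08, adjusted p = 0.0476). DRAM1, IGFBP3, KITLG and AIFM2 passed against each control singly, where 4.11% of all probes did so upward and 7.1% downward. THBS1 passed against NC2 only and SHISA5 against neither control singly.

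In THP1 0 of 16 further targets were called, where 0.0444% of all probes (6 of 13524) were. DRAM1 in THP1 was above both controls in 3 of 4 experiments and below both in experiment 4, which holds the dim arrays, and its difference between lines was not called (0.69, adjusted p = 0.309). Between lines, 8 of 20 were higher in Huh7 and 6 lower, where 62.6% of all probes were called, led by THBS1 (at least 13.9-fold higher in Huh7) and DRAM1 (3.41, SE 0.21). Of these calls, SESN2, AIFM2, IGFBP3 and THBS1 entered through Huh7 alone and TP53I11 and CASP8 through THP1 alone. Each was called higher in the line through which it entered, a direction that the filter favours.

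**Figure D5:**
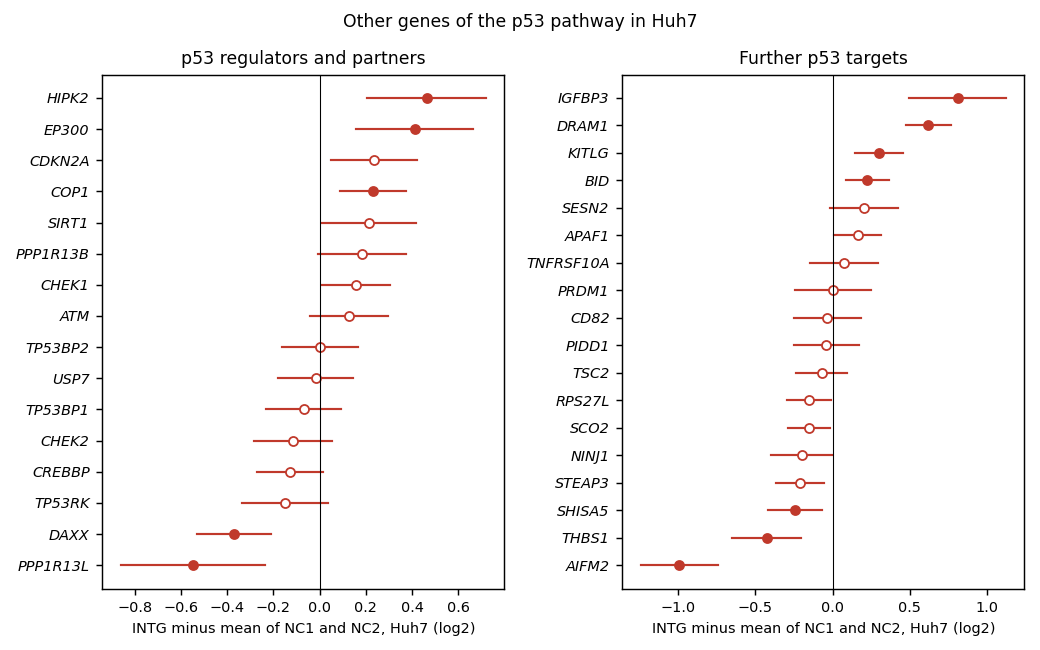
INTG minus the average of both controls in Huh7 (log2, horizontal axis) with its 95% interval for the 16 tested regulators and partners of p53 (left) and the 18 tested further p53 targets (right), filled where adjusted p was under 0.05. IGFBP3 and DRAM1 lie farthest right and AIFM2, at background with INTG, farthest left.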

How the data were processed

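Per the labels, total RNA was amplified, biotinylated and read on Illumina arrays, and lumi and limma are named, without versions, per the submitters' processing notes. The deposited scanner table holds, per the file headers, an intensity and a detection p-value for each probe, not normalised; the authors' processed intensity values, also deposited, served as an alternative and were normalised slide by slide. No other per-sample column was left out (0). How the authors corrected the background was not given in these sources.

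Of 48803 probes 8 with blank values were left out; 28092 had 1 gene symbol, 13 several and 20690 none. Signals were background-corrected (neqc: normexp from detection p-values, offset 16), quantile-normalised over 48 arrays and taken to log2 (limma 3.58.1, R 4.3.3). Wells of an experiment were averaged. In the siRNA comparisons the experiment was a block, since the series' design text makes each a separate passage given all 3 siRNAs. Deviations of its arms from their siRNA means correlated at 0.458 to 0.918. A shift shared by a slide would also raise these correlations, so they cannot choose between experiment and slide as the block. The design allows 6 residual degrees of freedom per line, and the number of arrays limits the precision. The baseline fit set 4 experiments against 4, and the joint fit tested the difference of effects.

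Every member was accounted for by its main probe, the one with the highest mean among tested probes. Values by experiment are given for members with a probe past the threshold in an siRNA comparison and for CDKN1A, MDM2, BAX and BBC3. From the other lists up to 6 passing genes per comparison are named, and MDM4. Members and lists were chosen with earlier results of these data known. The fits were tested on simulated data. Alternatives changed the block, normalisation, background, filter, probe, arrays and values.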

Additional observations from a re-analysis of the deposited data

Results flagged for a closer look

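The sets of 4 values by experiment were INTG minus the controls, NC2 minus NC1 and the control level. Among 120 such sets, 7 had 1 experiment far from the other 3 by Dixon's ratio, all of them differences. Chance gives about 1 in 20 such sets. For INTG minus the controls in Huh7, GADD45A was -0.18 in experiment 1, against 0.11 to 0.15 in the others, and BAX was 0.56 in experiment 3, against 0.16 to 0.23. Without experiment 3 the rise of BAX was 0.19 (limma adjusted p = 0.175).

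For INTG minus the controls in THP1, RRM2B was -0.35 in experiment 4, against 0.10 to 0.17, and TNFRSF10B was -0.80 in experiment 4, against 0.10 to 0.20. The INTG arrays of that experiment had 0.462 of the mean signal of its controls.

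For NC2 minus NC1, TP53INP1 in Huh7 was -0.45 in experiment 3, against 0.16 to 0.26, TP53I3 in THP1 was 0.89 in experiment 4, against -0.12 to 0.04, and ZMAT3 in THP1 was -0.24 in experiment 2, against -0.06 to -0.03.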

How the results depend on the processing

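Percentages in brackets are the shares of all probes called. The count of 5 members called with INTG in Huh7 (22.3%) was 1 with array brightness as a covariate (3.75%). It was 2 in experiments 1 and 2 alone (8.77%) and 2 in experiments 3 and 4 alone (5.89%). It was 2 with no detection filter (5.19%), 0 with no replicate block (2.4%) and 0 with only the slide as a block (8.16%). With 1 experiment left out it was 1 to 5 (12.7% to 18%). GDF15 was the 1 member called against each control singly (11.2%). That call was lost (0) with array brightness as a covariate (1.43%), in experiments 1 and 2 alone (2.75%) and in experiments 3 and 4 alone (2.08%). It was also lost with no replicate block (1.02%) and with only the slide as a block (3.38%). Median scaling called TIGAR in place of GDF15 (12.1%). GDF15 against the mean of the controls passed in 13 of 16 alternatives, CCNG2 in 9 of 15, TIGAR in 8 of 16, XPC in 6 of 16 and BAX in 4 of 16. XPC turned to -0.055 with median scaling. The 1 call between NC2 and NC1 in Huh7, CDKN1A (0.476%), was lost (0) with array brightness as a covariate (0.101%), in each phase alone (0%) and with median scaling (0.584%). It was also lost with no detection filter (0.0902%), no replicate block (0%) and only the slide as a block (0.0865%). Each fit without 1 experiment lost it too (0 to 0, with 0.0216% to 0.0865%). The CDKN1A value stayed between 0.43 and 0.69. The 0 members whose effect differed between the lines (2.6%) became 2 with array brightness as a covariate (GADD45A and SESN1, 9.79%). The count was 1 among probes detected on all arrays (CDKN1A, 8.27%) and 1 with no filter (GDF15, 0.658%). The 17 baseline calls (62.6%) were 9 with the authors' values, which were normalised slide by slide (29.4%), and 10 with median scaling (37.4%). GDF15, SFN, TP53I3, TNFRSF10B, SERTAD1 and XPC passed in all 14 alternatives. Counts of 0 in THP1 held in each alternative run, where at most 2.09% of all probes were called against the mean of the controls. The cause of these changes was not tested. Low signal limits MDM2 and the 7 undetected members.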
